A study of Mus musculus with 17 samples.

Results

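The genes of transforming growth factor-β (TGF-β) ligands, receptors and latency proteins were followed in mouse spinal cord, across anti-RGMa treated, isotype control and naïve mice. The set held 10 genes, Tgfb1, Tgfb2, Tgfb3, Inhba, Tgfbr1, Tgfbr2, Ltbp1, Ltbp2, Bmp1 and Tgfbi, chosen by their symbols in the array's annotation. All 10 were measured, by 26 probe sets that are annotated to a single gene, of 18194 genes and 34958 such probe sets in all. RNA came from the thoracic cord of female C57BL/6 mice, in 6 mice with targeted experimental autoimmune encephalomyelitis (EAE) given humanized anti-RGMa antibody, 5 with targeted EAE given an isotype control antibody (palivizumab) and 6 naïve mice with no treatment. In targeted EAE, mice are immunized with a myelin oligodendrocyte glycoprotein peptide in complete Freund's adjuvant, and weeks later TNF-α and IFN-γ are injected into the cord after a laminectomy at Th8, with pertussis toxin given intravenously. Both antibodies were given at 10 mg/kg from 9 days post cytokine injection (DPI), and a cord piece 4.5 mm wide around the injection site was taken at 14 DPI, with 1 array per mouse. All EAE mice had immunization, surgery, cytokines and an antibody, and the naïve mice had none of these, so that a difference from naïve mice cannot be assigned to any of them. Anti-RGMa and isotype control mice differed in the antibody. The labels give an age of 8 weeks without the step it refers to, and as EAE cords were taken weeks after immunization it cannot be taken as the age at sampling.

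TGF-β ligands are secreted in a latent form, in which the mature dimer stays bound to its own propeptide. Latent TGF-β binding proteins such as that of Ltbp1 tie this complex to the extracellular matrix, from which integrins and proteases release the active ligand. The active ligand binds the type II receptor (Tgfbr2), which phosphorylates the type I receptor (Tgfbr1), and the receptor then phosphorylates Smad2 and Smad3, which enter the nucleus and act with Smad4 on matrix and feedback genes. In the central nervous system, TGF-β1 is known as a factor on which microglia depend and as a signal in scar and fibrosis.

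A promoter entry of RefSeq (build GRCm38.p6) was matched by symbol for 8 of the 10 genes, with 10 start sites, and Tgfb3 and Bmp1 were not matched. The 250 bases before the start site are shown for 4 genes, the ligands Tgfb1 and Tgfb2, whose main probe sets differed in behaviour, the latency protein family member Ltbp2 and the induced gene Tgfbi. Capitals mark a GC box (GGGCGG) or a TATA box (TATAAA) on either strand. The Tgfb1 window is chr7:25686752-25687001 on the plus strand, that of Tgfb2 is chr1:186705990-186706239 on the minus strand, that of Ltbp2 is chr12:84876492-84876741 on the minus strand and that of Tgfbi is chr13:56609336-56609585 on the plus strand.
Tgfb1: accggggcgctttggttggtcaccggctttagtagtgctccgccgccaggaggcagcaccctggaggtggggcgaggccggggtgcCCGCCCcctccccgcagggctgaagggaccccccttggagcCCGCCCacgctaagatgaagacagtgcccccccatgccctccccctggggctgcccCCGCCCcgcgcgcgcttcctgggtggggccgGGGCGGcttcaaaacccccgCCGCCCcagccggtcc
Tgfb2: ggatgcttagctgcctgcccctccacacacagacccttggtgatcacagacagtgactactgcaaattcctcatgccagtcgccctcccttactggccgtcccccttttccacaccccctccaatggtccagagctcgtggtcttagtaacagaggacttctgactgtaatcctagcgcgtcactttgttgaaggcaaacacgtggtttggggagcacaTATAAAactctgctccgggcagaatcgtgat
Ltbp2: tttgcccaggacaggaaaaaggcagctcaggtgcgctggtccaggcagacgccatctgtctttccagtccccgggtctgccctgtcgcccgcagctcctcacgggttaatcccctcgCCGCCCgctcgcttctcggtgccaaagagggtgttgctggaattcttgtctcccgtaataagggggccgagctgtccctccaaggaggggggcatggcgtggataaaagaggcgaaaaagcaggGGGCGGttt
Tgfbi: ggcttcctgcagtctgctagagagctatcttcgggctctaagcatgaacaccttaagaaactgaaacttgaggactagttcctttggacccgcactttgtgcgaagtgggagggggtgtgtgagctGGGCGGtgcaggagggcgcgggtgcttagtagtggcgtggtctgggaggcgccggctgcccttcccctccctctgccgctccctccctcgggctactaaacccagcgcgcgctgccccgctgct

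The Tgfb1 window held 5 GC boxes and no TATA box by these letters, whereas the Tgfb2 window held 1 TATA box, at position -31 from the start site, and no GC box. Ltbp2 had 2 GC boxes and Tgfbi had 1. A GC box was found in 32.7% of all 32851 promoter windows of this length and a TATA box in 12.4%. Of the motifs linked to TGF-β signalling, the Smad box CAGACA (17.1% of all windows) was found in the windows of Tgfb2, Tgfbr1 and Ltbp1, and the palindrome GTCTAGAC (0.167%) and the AP-1 site TGANTCA (6.75%) were found in no window of these genes. Both strands were searched, and matches of different motifs did not overlap in these windows. A match is a description of the letters and not a site.

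Values below are log2 signals of the deposited, globally scaled MAS5.0 signals, and SD and SE are on the same scale. The median signal per array was 136 to 157 in anti-RGMa mice, 137 to 165 in isotype control mice and 132 to 145 in naïve mice, and the number of arrays limits the precision. The labelled tissue was checked with lists of marker genes, and the mean log2 signal of 9 neuronal markers was 11.73 to 12.68 in anti-RGMa mice, 11.50 to 12.29 in isotype control mice and 13.05 to 13.12 in naïve mice. Some arrays stood apart. The mean of 16 skeletal muscle markers reached 12.95 in isotype control replicate 4, 9.14 in replicate 5 and 9.03 in replicate 3, against 5.50 to 7.17 in anti-RGMa mice and 4.28 to 7.93 in naïve mice. The mean of 12 fibroblast markers was 11.02 in isotype control replicate 4 and 10.41 in replicate 3, against 7.35 to 9.00 in anti-RGMa mice, 8.29 to 9.07 in the other isotype control mice and 7.99 to 8.86 in naïve mice. The mean of 5 sensory ganglion markers was 8.51 and 7.16 in anti-RGMa replicates 1 and 6 against 4.59 to 4.90 in anti-RGMa replicates 2 to 5. For these genes, counts and the values that moved most are given also without these arrays, which were left out after their values were seen. In such bulk samples, fewer cells of a type and less RNA per cell cannot be told apart.

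Most of the 10 genes were higher in EAE cord. Against naïve mice, 17 of the 26 probe sets, of 8 genes, were higher in isotype control mice and 0 were lower (limma, adjusted p under 0.05), where 21.4% of all probe sets tested were higher and 26.3% lower. In anti-RGMa mice, 13 of the 26 probe sets, of 6 genes, were higher than in naïve mice and 0 were lower, beside 17.0% and 20.9% of all probe sets. The median log2 fold change of the 26 probe sets was 1.33 in isotype control and 0.98 in anti-RGMa mice, beside -0.06 over all probe sets in both. Of all probe sets that passed, 44.8% were higher in each comparison, and with arrays centred on their median 32.8% in anti-RGMa and 34.3% in isotype control mice, whereas 13 and 16 of the 26 were then higher and 0 lower. Without isotype control replicates 3 and 4, 13 of 26 were higher in isotype control than in naïve mice, and 12 without replicates 3, 4 and 5, with calls lost in 1450922_a_at and 1438303_at (Tgfb2), 1425444_a_at (Tgfbr2) and the dim 1447547_at (Ltbp1), and in the smaller fit also in 1445360_at (Tgfb1). Without anti-RGMa replicates 1 and 6, 12 of 26 were higher in anti-RGMa than in naïve mice. These 2 comparisons share the naïve arrays. The receptors Tgfbr1 and Tgfbr2, the ligand Tgfb1, the protease Bmp1, Ltbp2 and Tgfbi were higher than in naïve mice in both antibody groups. Tgfb3 and Inhba had no probe set that passed in either group.

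Between the antibody groups, the signals leaned to lower values under anti-RGMa. No probe set of the set passed an adjusted p under 0.05 with limma, and 0% of all 34958 probe sets did. At an unadjusted limma p under 0.05, 11 of the 26 probe sets passed, all lower. Of all 34958 probe sets 4705 passed, a count of both directions together that was not split. With a fold change over 1.5 in addition, the threshold of the study's results for this contrast, 8 of the 26 probe sets were lower and 0 higher, where 2.55% of all probe sets were lower and 1.42% higher. The 8 probe sets belonged to Tgfb1 (1), Tgfb2 (1), Ltbp1 (1), Ltbp2 (1) and Tgfbi (4). The log2 fold change was below 0 for 21 of 26 probe sets and for 10 of 10 genes by the probe set with the highest mean, beside 48.7% of all probe sets. The median over the 26 was -0.34, beside 0.01 over all. The count of 8 was 7 without isotype control replicates 3 and 4 and 10 without anti-RGMa replicates 1 and 6. It was 2 without isotype control replicate 1, 3 without anti-RGMa replicate 2 or 3 and 9 without anti-RGMa replicate 6. With arrays centred on the median it was 5, and with only the 2 groups compared 4. Several probe sets measure the same transcript and are not independent. Below, "lower at the study threshold" refers to this unadjusted call.

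**Figure D1:**
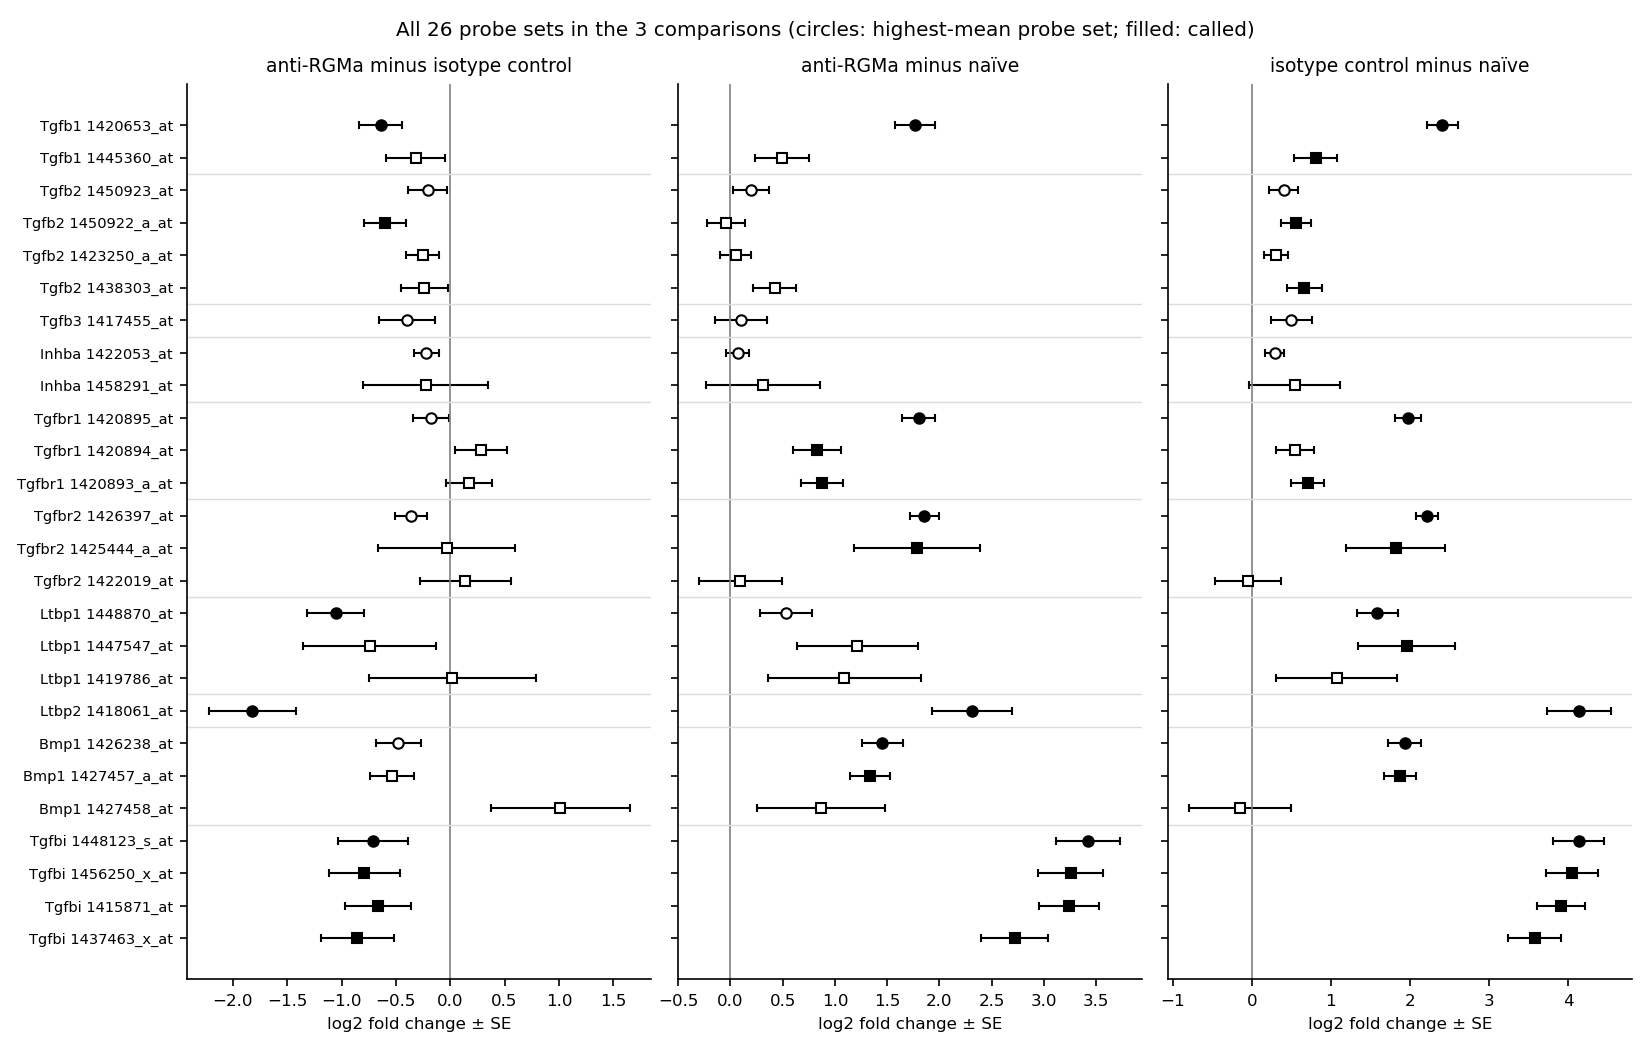
Log2 fold change (x axis) ± SE of the 26 probe sets (rows, grouped by gene) for anti-RGMa minus isotype control, anti-RGMa minus naïve and isotype control minus naïve. Circles are the highest-mean probe set of a gene and squares the others, and filled symbols passed (study threshold in the left panel, limma adjusted p under 0.05 in the others). In the left panel 8 filled symbols lie below 0 and none above.

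The plot of fold changes shows that the probe sets of a gene did not always move alike. For Tgfbi all 4 probe sets passed in each comparison. For Tgfb2, Tgfbr1, Tgfbr2, Ltbp1 and Bmp1 they differed, and the dim probe sets had wide errors.

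Among the ligands, only Tgfb1 had a probe set that passed against naïve mice in both antibody groups. Tgfb1 (chromosome 7), the main TGF-β of immune cells and a driver of matrix synthesis, had log2 signals of 7.49 to 8.53 in anti-RGMa mice (median 8.04), of 9.01, 8.34, 8.37, 8.49 and 9.04 in isotype control mice and of 6.02 to 6.56 in naïve mice (median 6.17). Every EAE mouse lay above every naïve mouse, and the antibody groups overlapped, although all 6 anti-RGMa mice lay under the mean of the isotype control mice. Tgfb1 was 3.40-fold higher in anti-RGMa mice than in naïve mice (log2 fold change 1.77, SE 0.19, limma adjusted p = 3.51e-06) and 5.30-fold higher in isotype control mice than in naïve mice (2.41, SE 0.20, adjusted p = 1.57e-07). Between antibody groups it was lower at the study threshold (log2 fold change -0.64, SE 0.20, unadjusted p = 0.0051, adjusted p = 0.275 from limma), at a fold of 1.56, just past 1.5. This call held in 13 of 17 fits that each left out 1 array. It was lost, at a fold under 1.5, without anti-RGMa replicate 2 (-0.54) or 3 (-0.57) or isotype control replicate 1 (-0.55) or 5 (-0.54). A second probe set, 1445360_at, had means of 6.01 ± 0.37 in anti-RGMa mice (SD, n = 6), 6.33 ± 0.26 in isotype control mice (SD, n = 5) and 5.52 ± 0.65 in naïve mice (SD, n = 6), and passed only for isotype control against naïve (log2 fold change 0.81, limma adjusted p = 0.0221), a call lost without isotype control replicate 1 (0.73) or 5 (0.75) or naïve replicate 5 (0.68).

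Tgfb2 (chromosome 1), a TGF-β isoform expressed by neurons and glia, had 4 probe sets. The highest-mean one, 1450923_at, had log2 signals of 7.73 to 8.76 in anti-RGMa mice (median 8.64), of 8.75, 8.60, 8.70, 9.18 and 8.28 in isotype control mice and of 8.14 to 8.45 in naïve mice (median 8.31). The 3 groups overlapped, and it passed in no comparison (isotype control against naïve 0.40, SE 0.18, limma adjusted p = 0.078). Without anti-RGMa replicate 4, its lowest mouse, it passed against naïve mice in both antibody groups (0.35 in anti-RGMa and 0.40 in isotype control mice, limma adjusted p = 0.0481 and 0.0181), and without isotype control replicate 5 in isotype control mice (0.51). Of the other 3 probe sets, 1450922_a_at and 1438303_at were higher in isotype control mice than in naïve mice, by 0.56 and 0.67 on the log2 scale (limma adjusted p = 0.0232 and 0.0179). These calls were lost without isotype control replicate 3 (0.49 and 0.56), and the call of 1450922_a_at also without isotype control replicate 1 (0.51) or naïve replicate 5 (0.44). Between antibody groups, 1450922_a_at was lower at the study threshold, with signals of 7.27 to 8.06 in anti-RGMa mice (median 7.97) against 8.61, 8.02, 8.69, 8.47 and 8.27 in isotype control mice (log2 fold change -0.60, SE 0.19, limma unadjusted p = 0.00615, adjusted p = 0.278). Without isotype control replicates 3 and 4 it was -0.49 (unadjusted p = 0.0502) and did not pass, and 1450923_at was -0.05. The call was also lost without anti-RGMa replicate 3 (-0.55) or 4 (-0.49) or isotype control replicate 1 (-0.55) or 3 (-0.53).

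Tgfb3 (chromosome 12), the third TGF-β isoform, had 1 probe set, with log2 signals of 8.88 to 9.60 in anti-RGMa mice (median 9.42), of 9.28, 9.53, 9.87, 10.87 and 8.97 in isotype control mice and of 8.87 to 9.42 in naïve mice (median 9.20). The groups overlapped, and 1 mouse, isotype control replicate 4, lay well above all others. It passed in no comparison (anti-RGMa against isotype control -0.40, SE 0.26, limma unadjusted p = 0.147), and without isotype control replicates 3 and 4 this difference was 0.05. Isotype control against naïve was 0.50 and did not pass, but passed without isotype control replicate 5 (0.68, limma adjusted p = 0.0387). Inhba (chromosome 13) encodes the βA subunit of activin A, a ligand that signals through activin receptors to the same Smads as TGF-β. Its brighter probe set had signals of 8.27 to 8.61 in anti-RGMa mice (median 8.39), of 8.50, 8.46, 8.39, 8.77 and 8.97 in isotype control mice and of 8.14 to 8.52 in naïve mice (median 8.33). These groups overlapped, and isotype control against naïve just missed the threshold (log2 fold change 0.29, SE 0.12, limma adjusted p = 0.0512), and passed in 6 of the 17 fits that left out 1 array. The second Inhba probe set was dim, at 0.86 to 4.53 over all mice, and passed in no comparison.

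**Figure D2:**
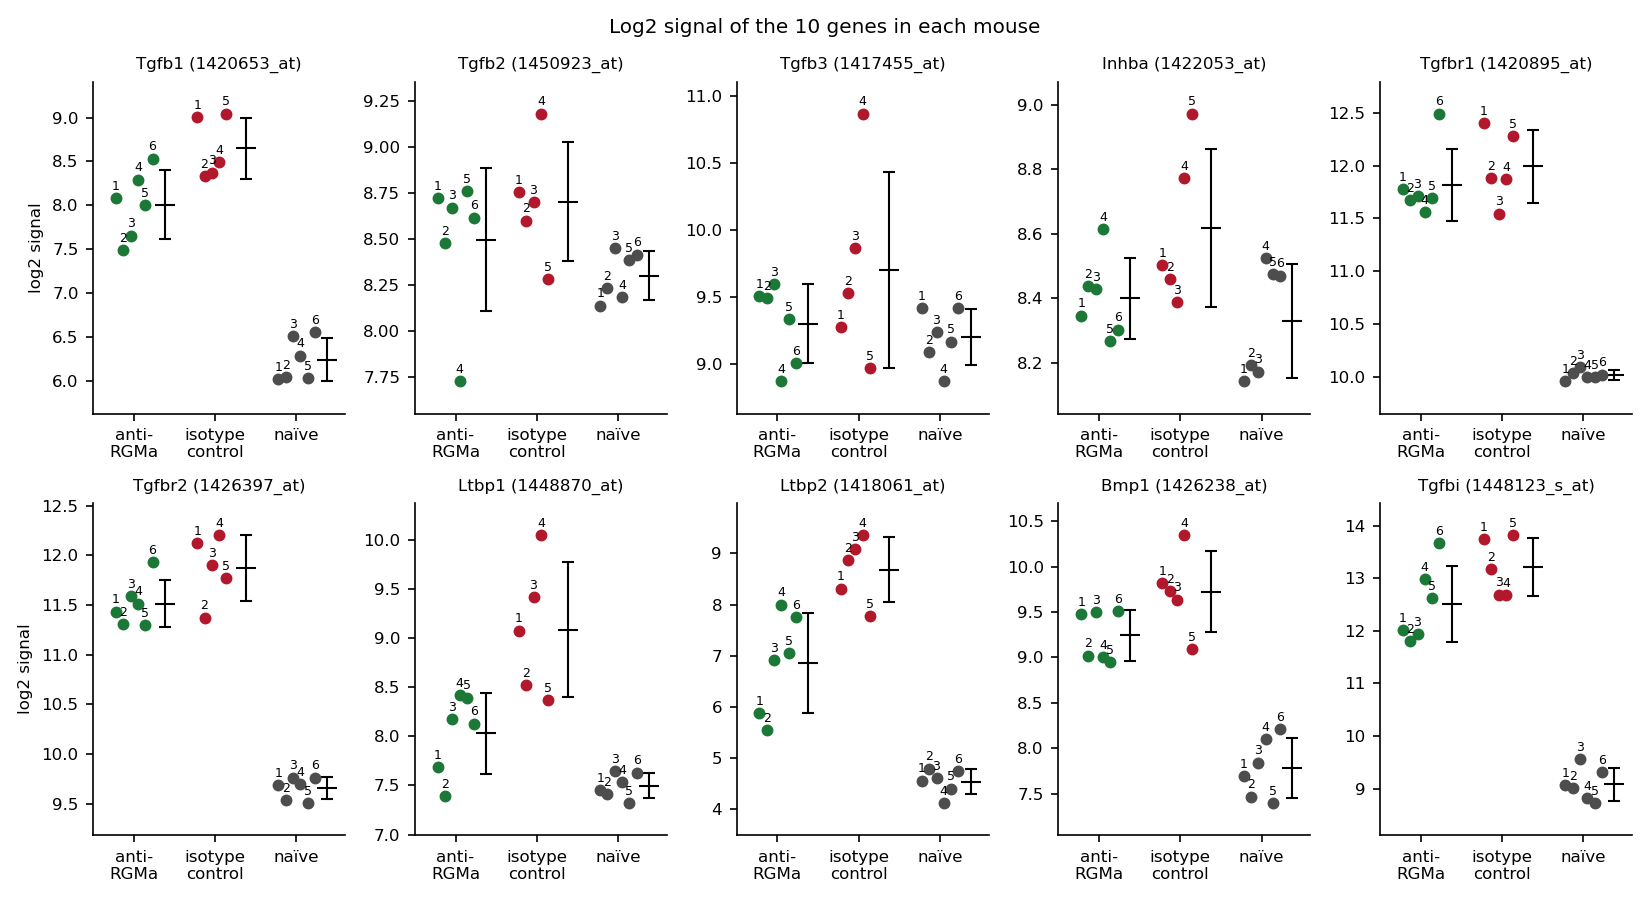
Log2 signal (y axis, its own scale in each panel) of the highest-mean probe set of each gene, with 1 point per mouse labelled by replicate number, for anti-RGMa, isotype control and naïve mice. Horizontal bars and whiskers are the mean ± SD. For Tgfb1, Tgfbr1, Tgfbr2, Ltbp2, Bmp1 and Tgfbi every EAE mouse lies above every naïve mouse, and in all 10 panels the 2 antibody groups overlap. The share of all probe sets separated in this way was not counted. Of all probe sets, 21.4% were called higher than naïve in isotype control and 17.0% in anti-RGMa mice.

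Both receptors rose in EAE cord in both antibody groups. Tgfbr1 (chromosome 4), the type I receptor kinase that phosphorylates Smad2 and Smad3, had log2 signals of 11.56 to 12.49 in anti-RGMa mice (median 11.70), of 12.40, 11.88, 11.55, 11.87 and 12.27 in isotype control mice and of 9.96 to 10.09 in naïve mice (median 10.01). The naïve mice were nearly alike and every EAE mouse lay above them, with anti-RGMa replicate 6 and isotype control replicates 1 and 5 the highest. Tgfbr1 was 3.48-fold higher in anti-RGMa than in naïve mice (limma adjusted p = 4.23e-07) and 3.94-fold higher in isotype control than in naïve mice (adjusted p = 1.92e-07). The antibody groups differed by -0.18 (SE 0.16, limma unadjusted p = 0.298), which did not pass. The dimmer probe sets 1420894_at and 1420893_a_at were higher in anti-RGMa than in naïve mice by 0.83 and 0.88 on the log2 scale, and in isotype control mice only 1420893_a_at passed (0.71), with 1420894_at passing there without anti-RGMa replicate 4 (0.55) or isotype control replicate 2 (0.65). Their differences between antibody groups were above 0 (0.28 and 0.17) and did not pass, opposite in sign to that of the main probe set. Without anti-RGMa replicate 6 the difference of the main probe set was -0.31 (unadjusted p = 0.0278), at a fold under 1.5.

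Tgfbr2 (chromosome 9), the ligand-binding type II receptor, had log2 signals of 11.30 to 11.93 in anti-RGMa mice (median 11.47), of 12.13, 11.37, 11.90, 12.20 and 11.77 in isotype control mice and of 9.51 to 9.76 in naïve mice (median 9.69). Again every EAE mouse was above every naïve mouse and the antibody groups overlapped. It was 3.61-fold higher in anti-RGMa than in naïve mice (limma adjusted p = 6.86e-08) and 4.65-fold higher in isotype control than in naïve mice (adjusted p = 1.34e-08). The difference between antibody groups was -0.36 (SE 0.14, limma unadjusted p = 0.0231, adjusted p = 0.322), a fold of 1.29, and was not called. A dimmer probe set, 1425444_a_at, was also higher in both antibody groups than in naïve mice (1.78 and 1.82), with signals in naïve mice spread over 2.54 to 6.28. Its calls were lost without naïve replicate 2 (1.61 in anti-RGMa and 1.64 in isotype control mice), for anti-RGMa mice also without anti-RGMa replicate 1 (1.65) or naïve replicate 6 (1.32), and for isotype control mice also without isotype control replicate 1 (1.65), 3 (1.70) or 4 (1.58). The dimmest, 1422019_at, at 2.93 to 5.46 over all mice, passed in no comparison.

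The latency proteins had the largest differences between the antibody groups. Ltbp1 (chromosome 17), which covalently binds latent TGF-β and anchors it to fibrillin and fibronectin, had log2 signals of 7.39 to 8.42 in anti-RGMa mice (median 8.15), of 9.08, 8.52, 9.42, 10.05 and 8.37 in isotype control mice and of 7.32 to 7.65 in naïve mice (median 7.49). All isotype control mice lay above all naïve mice, whereas the anti-RGMa mice reached into the naïve range with replicate 2 and overlapped the isotype control mice with replicates 4 and 5. Ltbp1 was 3.00-fold higher in isotype control than in naïve mice (limma adjusted p = 0.00013), and in anti-RGMa mice it did not pass against naïve mice (log2 fold change 0.53, SE 0.25, adjusted p = 0.108), but passed without anti-RGMa replicate 2 (0.66) or isotype control replicate 4 (0.53). Between antibody groups it was 2.08-fold lower (log2 fold change -1.05, SE 0.26, unadjusted p = 0.001, adjusted p = 0.26) and lay under the isotype control mean in 6 of 6 mice. The call at the study threshold held in 17 of 17 fits with 1 array left out, with values of -1.23 to -0.81. It was -0.62 without isotype control replicates 3 and 4 (unadjusted p = 0.0132) and still passed. The other 2 Ltbp1 probe sets were dim, at 1.14 to 6.16 over all mice, and did not pass between the antibody groups.

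Ltbp2 (chromosome 12) belongs to the same family but does not bind latent TGF-β, and associates with fibrillin microfibrils. Its log2 signals were 5.88, 5.55, 6.91, 8.00, 7.05 and 7.75 in anti-RGMa mice, 8.31, 8.87, 9.09, 9.36 and 7.77 in isotype control mice and 4.13 to 4.79 in naïve mice (median 4.59). The naïve signals were low, every EAE mouse was above them, and anti-RGMa replicates 1 and 2 were the lowest EAE mice. Only anti-RGMa replicate 4 reached the isotype control range. Ltbp2 was 4.97-fold higher in anti-RGMa than in naïve mice (limma adjusted p = 0.000269) and 17.6-fold higher in isotype control than in naïve mice (adjusted p = 9.5e-07). The sizes of these folds rest on a low naïve signal that was not checked against background, and with an offset of 32 added to the linear signals they were 2.76-fold in anti-RGMa and 8.01-fold in isotype control mice. Anti-RGMa against isotype control gave a 3.54-fold lower signal (log2 fold change -1.82, SE 0.40, unadjusted p = 0.000358, adjusted p = 0.26 from limma), the largest difference of the 26 probe sets between these groups. This passed the study threshold in 17 of 17 fits with 1 array left out (-2.05 to -1.56) and without isotype control replicates 3 and 4 (-1.46, unadjusted p = 0.00731).

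Bmp1 (chromosome 14) encodes a tolloid-like metalloprotease that removes procollagen C-propeptides and can cleave LTBP1. Its signals were 8.95 to 9.51 in anti-RGMa mice (median 9.25), 9.81, 9.73, 9.63, 10.35 and 9.09 in isotype control mice and 7.40 to 8.21 in naïve mice (median 7.77). Every EAE mouse lay above every naïve mouse. Bmp1 was 2.74-fold higher in anti-RGMa than in naïve mice (limma adjusted p = 4.5e-05) and 3.82-fold higher in isotype control than in naïve mice (adjusted p = 2.69e-06), and a second probe set, 1427457_a_at, gave 2.52-fold and 3.66-fold. Between antibody groups these 2 probe sets differed by -0.48 (SE 0.21, unadjusted p = 0.0349) and -0.54 (SE 0.20, unadjusted p = 0.0167), at folds of 1.39 and 1.45, and were not called. Without isotype control replicate 5 they were -0.64 and -0.71 and passed the study threshold, as did 1427457_a_at without anti-RGMa replicate 6 (-0.63) or isotype control replicate 2 (-0.61). The third, dim probe set, 1427458_at, had the opposite sign (1.01, SE 0.64, unadjusted p = 0.134), which passed without anti-RGMa replicate 1 (1.41) or isotype control replicate 4 (1.43).

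Tgfbi (chromosome 13) encodes a secreted matrix protein named for its induction by TGF-β, and macrophages are among its sources. Its main probe set had log2 signals of 12.01, 11.81, 11.94, 12.99, 12.62 and 13.66 in anti-RGMa mice, of 13.74, 13.17, 12.68, 12.67 and 13.82 in isotype control mice and of 8.73 to 9.55 in naïve mice (median 9.04). Naïve and EAE mice were far apart. In the anti-RGMa group, replicates 1, 2, 3 and 5 lay below all isotype control mice, whereas replicates 4 and 6 lay within their range. Tgfbi was 10.7-fold higher in anti-RGMa than in naïve mice (limma adjusted p = 5.87e-07) and 17.6-fold higher in isotype control than in naïve mice (adjusted p = 9.77e-08). Its 4 probe sets had log2 fold changes of -0.71, -0.79, -0.66 and -0.86 between the antibody groups (limma unadjusted p = 0.0434, 0.0277, 0.0447 and 0.0215), and for each of them 5 of 6 anti-RGMa mice lay under the isotype control mean. These calls sat close to the threshold. With 1 array left out they held in 8, 12, 5 and 13 of 17 fits, and for the main probe set the value ranged from -0.94 without anti-RGMa replicate 6 to -0.56 without isotype control replicate 5. All 4 calls were lost without anti-RGMa replicate 1 or 2 or isotype control replicate 1 or 5, with values of -0.76 to -0.50. The main probe set and 1415871_at also lost theirs without anti-RGMa replicate 3 or 5, isotype control replicate 2 or single naïve arrays, with values of -0.73 to -0.58, and 1456250_x_at without anti-RGMa replicate 3 (-0.72). Without isotype control replicates 3 and 4 the main probe set was at -1.07 and passed.

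The adjusted p depended on 1 array. Without anti-RGMa replicate 6, where Tgfbr1 and Tgfbi were highest among the anti-RGMa mice, 5 of the 26 probe sets passed a limma adjusted p under 0.05 between the antibody groups, all lower (Tgfb1 -0.75, Ltbp1 -1.07, Ltbp2 -2.00 and the Tgfbi probe sets 1456250_x_at at -1.05 and 1437463_x_at at -1.12), while 1.65% of all probe sets were lower and 2.81% higher at that adjusted p. Leaving out any other array gave 0 of 26, and so did leaving out anti-RGMa replicates 1 and 6 together.

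The members ran with different cell type lists among the EAE mice. Over the 11 EAE arrays, which share the scaling and the lesion, the average of the 16 markers of macrophages and monocytes had a Pearson correlation of 0.93 with Tgfbi, 0.91 with Tgfbr1 and 0.86 with Tgfb1. That mean was 11.62 in anti-RGMa replicate 6 and 10.54 to 10.96 in replicates 1 to 5, 11.72 and 11.63 in isotype control replicates 1 and 5 and 10.79 to 11.05 in the other isotype control mice, and 6.93 to 7.48 in naïve mice. All 16 of these markers were higher in each antibody group than in naïve mice (limma adjusted p under 0.05), and between the antibody groups 3 of 16 were lower and 0 higher at the study threshold. Other lists ran with these genes as closely. Tgfb1 and Tgfbi had correlations of -0.91 and -0.92 with the neuronal markers, and Tgfbi one of 0.92 with the T cell markers. The correlation of the fibroblast marker mean was 0.93 with Ltbp1, 0.75 with Ltbp2, 0.72 with Tgfb3 and 0.71 with Bmp1. Ltbp1 and Ltbp2 also had correlations of -0.87 and -0.80 with the oligodendrocyte markers, and Tgfb3 had 0.83 with the mural cell markers. With the astrocyte markers Ltbp1 and Ltbp2 had -0.89 and -0.73, and with the endothelial markers 0.77 and 0.68. Their Spearman's rho with the endothelial markers was 0.81 and 0.77. Inhba had a Pearson correlation of 0.69 with the endothelial markers. Spearman's rho with the fibroblast markers was 0.82 for Ltbp1, 0.71 for Ltbp2, 0.46 for Bmp1 and 0.31 for Tgfb3, and with the macrophage and monocyte markers it was 0.95 for Tgfbi, 0.89 for Tgfb1 and 0.70 for Tgfbr1. At the study threshold, 7 of the 12 fibroblast markers were lower in anti-RGMa than in isotype control mice and 0 were higher. The part of these cell types in the results was not tested.

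**Figure D3:**
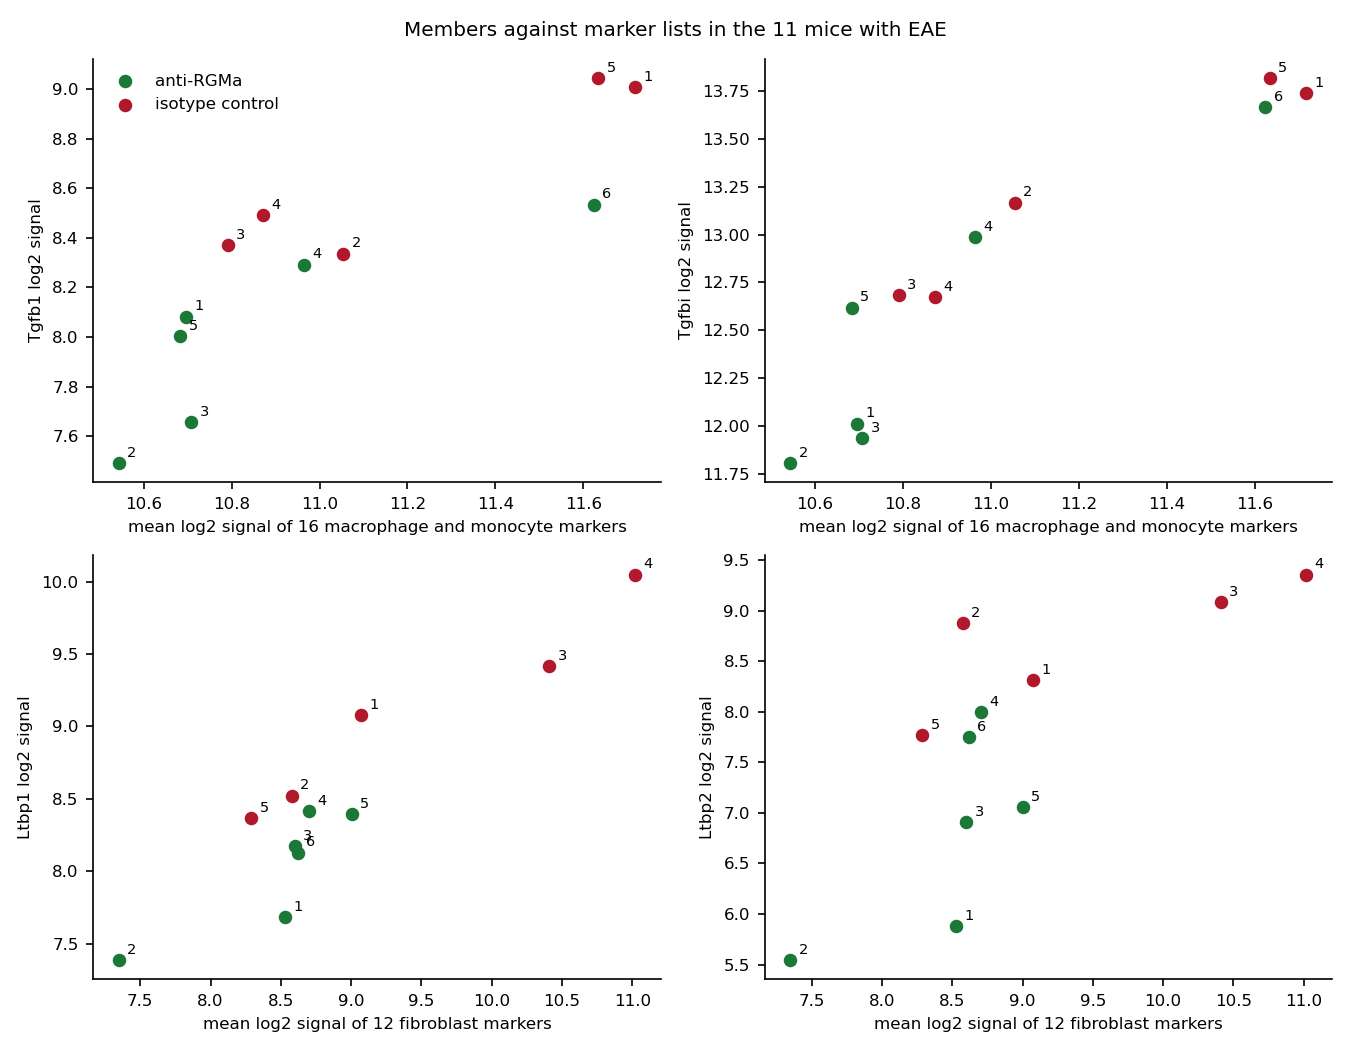
Log2 signal of Tgfb1 and Tgfbi (y axes, upper row) against the mean of 16 markers of macrophages and monocytes (x axis, log2), and of Ltbp1 and Ltbp2 (lower row) against that of 12 fibroblast markers, with 1 point per mouse with EAE, labelled by replicate number and coloured by antibody group. Isotype control replicates 1 and 5 and anti-RGMa replicate 6 lie at the upper right of the upper row, and isotype control replicates 3 and 4, at 10.41 and 11.02 on the fibroblast axis, at the upper right of the lower row.

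The plot of members against markers shows that Ltbp2 ran less closely with the fibroblast markers than Ltbp1 did. Anti-RGMa replicate 2 was lowest in both Ltbp2 (5.55) and the fibroblast mean (7.35), whereas isotype control replicate 2 had an Ltbp2 signal of 8.87 at a fibroblast mean of 8.58.

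By the highest Pearson correlation over the 11 EAE arrays, among 11831 other genes whose mean log2 signal was 7 or more, the patterns most like that of Tgfb1 were those of Ctnna1 (0.98), Elavl1 (0.98) and Septin2 (0.97). For Tgfbr1 they were Itgax (0.97), Crlf2 (0.97) and Sgpl1 (0.97), and for Tgfbr2 they were Plekha4 (0.95), Aopep (0.94) and Vkorc1 (0.93). Ltbp1 was most like Pdgfrl (0.98), Col4a1 (0.98) and Bgn (0.98), and Ltbp2 was most like Ccnd3 (0.95), Plekhg2 (0.94) and Il17rc (0.93). Tgfbi was most like Vasp (0.99), Tnfaip8 (0.98) and Lcp1 (0.98), Tgfb3 like Pamr1 (0.96), Pxdn (0.95) and Ghr (0.95), and Bmp1 like Abl1 (0.92), Kdelr2 (0.91) and B3glct (0.91). Tgfb2 was most like Gbe1 (0.94), Iqcc (0.93) and Lrp6 (0.92), and Inhba, with the lowest of these correlations, like Zdhhc5 (0.85), Zfp652 (0.83) and Tmed9 (0.83). With 11 arrays many genes reach such values, and the 99th percentile over all genes was 0.90 for Tgfb1 and 0.94 for Tgfbi.

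Beyond the 10 genes, 98 measured genes of 8 lists of the pathway were counted, each by its highest-mean probe set. The lists were chosen with earlier results of these data known, so their counts beside all genes are a description and not a test. In isotype control mice 67 of 98 were higher than in naïve mice and 10 lower (limma adjusted p under 0.05), where 24.2% of 18194 genes were higher and 26.6% lower. In anti-RGMa mice 56 were higher and 6 lower, beside 19.8% and 20.8% of all genes. Between the antibody groups 0 of 98 passed an adjusted p under 0.05, as did 0% of all genes. At the study threshold 28 of 98 were lower and 0 higher, beside 2.73% and 1.23% of all genes. This count changed with the isotype control arrays kept. It was 17 without isotype control replicates 3 and 4, with 14 of the 28 and 3 others. Without isotype control replicates 3, 4 and 5 it was 13, and without replicate 5 alone 30. These fits also compare fewer mice, and the cause of the change was not tested. Of the 28, 15 had a fold change that was over 1.5 times nearer to 0 without replicates 3 and 4. With any 1 array left out, 23 of the 28 passed in all 17 fits, and Fbn2, Pmepa1, Fstl3, Dcn and Ccn2 lost the call in some, each of them without isotype control replicate 4 (-0.38, -0.53, -0.58, -0.86 and -0.75).

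**Figure D4:**
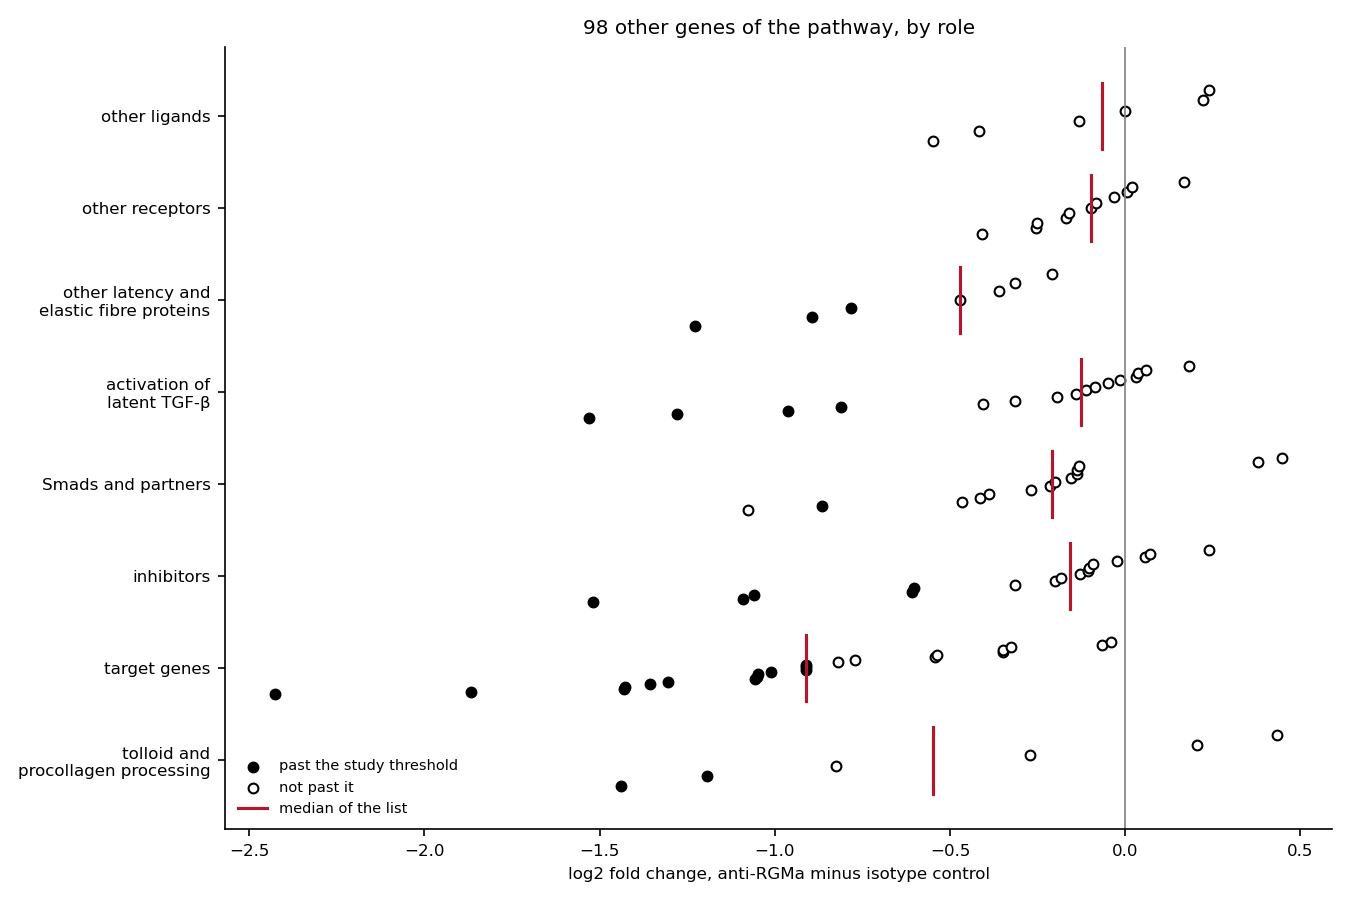
Log2 fold change of anti-RGMa minus isotype control (x axis) for 98 other genes of the pathway, 1 point per gene, grouped by role. Filled points passed the study threshold, and red lines are the medians of the lists. Target genes have the lowest median, -0.91, with 13 of 22 filled, and the other ligands and receptors have none filled.

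The plot of the pathway lists shows in which roles the lower genes lay, and no other ligand or receptor was among them. Of the 22 target genes measured, 13 were lower in anti-RGMa than in isotype control mice at the study threshold and 22 of 22 had a fold change below 0, with a median of -0.91 beside 0.01 over all genes. Postn (periostin, a matrix protein) had means of 8.60 ± 0.59 in anti-RGMa mice (SD, n = 6), 11.03 ± 2.27 in isotype control mice (SD, n = 5) and 6.33 ± 0.28 in naïve mice (SD, n = 6). Col1a1, a chain of type I collagen, was at 9.60 ± 0.68 in anti-RGMa, 11.46 ± 1.10 in isotype control and 7.63 ± 0.73 in naïve mice, and Tnc (tenascin C, a wound matrix protein) at 9.22 ± 0.58 in anti-RGMa, 10.65 ± 0.82 in isotype control and 6.84 ± 0.16 in naïve mice. The log2 fold changes of Postn, Col1a1 and Tnc between antibody groups were -2.42, -1.87 and -1.43, and without isotype control replicates 3 and 4, the mice rich in fibroblast markers, they were -0.82, -1.22 and -1.03 and still passed. The collagen genes Col1a2, Col3a1 and Col5a2, the crosslinking enzymes Lox and Plod2, fibronectin (Fn1), the contractile genes Acta2 and Tagln and the matricellular genes Ccn1 and Ccn2 were also lower at the study threshold, with log2 fold changes of -1.43 to -0.91. Of these 10, Tagln (-1.30), Ccn1 (-1.15), Fn1 (-0.72) and Acta2 (-0.59) still passed without isotype control replicates 3 and 4, and Col1a2 (-0.50), Col3a1 (-0.74), Col5a2 (-0.39), Lox (-0.66), Plod2 (-0.42) and Ccn2 (-0.69) did not. Over the 22 target genes, the count of 13 was 8 without these mice, and the median was -0.55. Acta2 (smooth muscle actin) was the only one of the 13 whose antibody groups did not overlap, with means of 9.50 ± 0.25 in anti-RGMa mice, 10.55 ± 0.71 in isotype control mice and 9.69 ± 0.18 in naïve mice. How many of all genes had antibody groups that did not overlap was not counted. Against naïve mice, 19 of 22 target genes were higher in isotype control and 16 in anti-RGMa mice, led by Timp1, an inhibitor of metalloproteases, with log2 fold changes of 5.39 in anti-RGMa and 6.16 in isotype control mice. Most of these target genes are also expressed by fibroblasts. Over the 11 EAE arrays their mean had a Pearson correlation of 0.94 with Ltbp1, 0.90 with Ltbp2 and 0.60 with Tgfb1. It was 0.91 with the fibroblast, -0.92 with the oligodendrocyte and -0.89 with the astrocyte markers. Spearman's rho was 0.85 with Ltbp1, 0.92 with Ltbp2 and 0.74 with Tgfb1. It was 0.73 with the fibroblast, -0.9 with the oligodendrocyte and -0.95 with the astrocyte markers.

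Among genes that release latent TGF-β, 4 of 16 were lower in anti-RGMa than in isotype control mice at the study threshold, Thbs1 (thrombospondin 1, an activator of latent TGF-β), the metalloprotease genes Mmp2 and Mmp14 and the transglutaminase gene Tgm2, with log2 fold changes of -1.53, -1.28, -0.96 and -0.81. Mmp2 was at -0.60 and did not pass without isotype control replicates 3 and 4, and Thbs1 (-1.56), Mmp14 (-0.83) and Tgm2 (-1.01) did. The other 12 did not pass, integrin chains included, and Ctsd (cathepsin D) was at 14.06 ± 0.27 in anti-RGMa mice, 14.02 ± 0.28 in isotype control mice and 12.31 ± 0.09 in naïve mice. Of 7 other latency and elastic fibre genes, 3 were lower, Eln (elastin), Emilin1, whose product restrains processing of proTGF-β1, and Fbn2 (fibrillin 2), with log2 fold changes of -1.23, -0.89 and -0.78, and without isotype control replicates 3 and 4 they were -0.58, -0.62 and -0.12 and none passed. Nrros, which holds latent TGF-β1 on microglia and other myeloid cells, was 2.15 higher in anti-RGMa and 2.36 higher in isotype control mice than in naïve mice on the log2 scale, and the antibody groups differed by -0.21, which did not pass. In the list of procollagen processing, Pcolce, which enhances BMP1 activity on procollagen, and Serpinh1 (a collagen chaperone) were lower (log2 fold changes -1.44 and -1.19), and 4 of 6 did not pass. Pcolce was at -0.82 without isotype control replicates 3 and 4 and did not pass, and Serpinh1 was at -0.66 and did. Pcolce2 was lower than in naïve mice in both antibody groups, with log2 fold changes of -0.47 in anti-RGMa and -0.90 in isotype control mice.

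Few receptors and intracellular mediators passed between the antibody groups. Of 11 other receptors and coreceptors, 0 passed the study threshold. Cd109, a coreceptor that binds TGF-β, endoglin (Eng) and the endothelial type I receptor Acvrl1 were higher than in naïve mice in anti-RGMa mice (log2 fold changes 1.89, 0.99 and 0.99) and in isotype control mice (1.98, 1.16 and 1.25). Of 14 Smads and partner genes, 12 were higher in isotype control than in naïve mice, and 1, the AP-1 gene Fosl2, was lower at the study threshold in anti-RGMa than in isotype control mice (9.45 ± 0.51 against 10.31 ± 0.17, log2 fold change -0.87, limma unadjusted p = 0.00048), at -0.92 without isotype control replicates 3 and 4. The AP-1 genes Jun and Junb were higher than in naïve mice in both antibody groups and were not called between them (-0.39 and -0.42). Of 6 other ligands of the superfamily 0 passed between the antibody groups, and Inha and Inhbb, which encode the inhibin α and βB subunits, were lower in isotype control than in naïve mice (log2 fold changes -0.52 and -0.69), whereas Inhbc was higher (0.91). The Inhbc probe set was dim, at 4.73 to 5.90 in isotype control and 3.53 to 5.39 in naïve mice, and these groups overlapped.

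Of 16 inhibitors of the pathway, 5 were lower in anti-RGMa than in isotype control mice at the study threshold and 0 higher. Fst (follistatin, which binds activins) was at 5.66 ± 0.48 in anti-RGMa mice (SD, n = 6), 7.18 ± 0.65 in isotype control mice (SD, n = 5) and 4.88 ± 0.39 in naïve mice (SD, n = 6), and its antibody groups did not overlap (log2 fold change -1.52, SE 0.30, limma unadjusted p = 0.000111, adjusted p = 0.223). The share of all genes separated in this way was not counted. Pmepa1, a feedback inhibitor that TGF-β induces, had a log2 fold change of -0.60, Fstl3, a relative of follistatin, one of -0.61, and the proteoglycans Bgn and Dcn, which bind TGF-β, had -1.09 and -1.06. Without isotype control replicates 3 and 4, Fst (-1.07) and Fstl3 (-0.73) still passed, and Pmepa1 (-0.49), Bgn (-0.56) and Dcn (-0.63) did not. The other 11 did not pass. Tgif1 and Tgif2, nuclear repressors of Smad activity, were higher than in naïve mice in both antibody groups, Tgif1 by 2.23 in anti-RGMa and 2.36 in isotype control mice, and were not called between them.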

How the data were processed

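Total RNA of each cord was hybridised to an Affymetrix Mouse Genome array. The deposited values are linear signal intensity values, which the authors computed with MAS5.0 and scaled globally. The submitters' notes name affy and MAS5, with neither a version of affy nor a target of the scaling. The trimmed mean (2% from each end) was 500 in every array. Columns of other samples numbered 0, and no detection calls were used.

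Of 45101 probe sets, 34958 with 1 gene in the platform annotation were used, and 932 with several genes and 9211 with none were left out. Without an offset or a filter, signals were put on the log2 scale, and 1 fit over the 3 groups was made with limma 3.58.1 in R 4.3.3 (lmFit, eBayes), with p-values adjusted by Benjamini-Hochberg over all 34958 probe sets. The fit was tested on simulated data with known changes. Nothing in the labels or methods pairs mice with the same replicate number, so they were taken as unpaired. P-values measure the spread between mice.

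Named pathway genes were, per list, those past the study threshold and the 3 with the smallest p against naïve mice, and all 10 members were named with all probe sets. The members, the 8 pathway lists and the 13 marker lists were chosen with earlier results of these data known. Of 108 listed pathway genes, 98 were measured. Alternatives covered scaling, an offset of 32, a filter on dim probe sets, how probe sets of a gene were combined, which groups were fitted, the variance model, weights per array, a replicate block and arrays left out. Python 3.11.15 with matplotlib 3.10.9 drew the figures.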

Additional observations from a re-analysis of the deposited data

Results flagged for a closer look

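In each group the highest or lowest mouse of every probe set was compared with its nearest neighbour by Dixon's test at the 95% level, which by chance marks about 5% of groups. It marked 8 of 78 groups (10.3%). Anti-RGMa replicate 6 was high for Tgfbr1 1420895_at, at 12.49 against 11.56 to 11.77 in replicates 1 to 5, and for Bmp1 1427457_a_at, at 7.67 against 6.93 to 7.20. This mouse had the highest macrophage marker mean of its group (11.62).

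Anti-RGMa replicate 4 was low for Tgfb2 1450923_at, at 7.73 against 8.48 to 8.76 in the rest of its group, and for Tgfbr1 1420894_at, at 6.43 against 7.09 to 7.35. Naïve replicate 6 was low for Tgfbr1 1420894_at, at 5.27 against 6.20 to 6.59. The other 3 marks were in dim probe sets of Tgfbr2. Isotype control replicate 2 had 4.50 for 1425444_a_at against 6.82 to 7.66, and for 1422019_at anti-RGMa replicate 1 had 2.93 against 4.81 to 5.46 and naïve replicate 2 had 3.35 against 4.57 to 5.19.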

How the results depend on the processing

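The members higher than naïve in isotype control mice numbered 17 of 26 probe sets, 8 of 10 with 1 probe set per gene and 8 of 10 with probe sets of a gene averaged, and 15 to 20 with 1 array left out. In anti-RGMa mice they numbered 13, 8 of 14 among those whose mean log2 signal was 7 or more, 6 of 10 with 1 probe set per gene, 6 of 10 with probe sets of a gene averaged, and 12 to 14 with 1 array left out. The smaller fits hold fewer member probe sets, so their counts are not on the scale of the 26. In the full fit, 7 of the 10 highest-mean probe sets were higher in isotype control and 6 in anti-RGMa mice. The 8 of 10 genes in the smaller fits therefore need not be the 8 genes called in the full fit. The members lower at the study threshold between the antibody groups numbered 8, 5 with arrays centred on the median, 4 of 10 with 1 probe set per gene, 2 of 10 with probe sets averaged, 4 with only the 2 groups compared and 2 to 9 with 1 array left out (2 without isotype control replicate 1, 3 without anti-RGMa replicate 2 or 3, and 5 without anti-RGMa replicate 1 or isotype control replicate 5); the cause was not tested. At an adjusted p it was 0, and 0 to 5 with 1 array left out, 5 without anti-RGMa replicate 6. The count of 28 lower pathway genes was 17 without isotype control replicates 3 and 4, 13 without replicates 3, 4 and 5, and 23 to 31 with 1 array left out.

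With a replicate block 14 members were higher in anti-RGMa and 17 in isotype control mice than in naïve mice, 0 passed an adjusted p and 8 were lower at the study threshold between the antibody groups, and 29 pathway genes were lower, and the deviations of same-numbered mice correlated at -0.045 to 0.041. Without isotype control replicates 3, 4 and 5, Tgfb2 1423250_a_at turned to -0.0032 in isotype control against naïve mice and to 0.0544 between the antibody groups. In 50 further of 2208 recomputed values the sign changed, and 0 of the sign changes concerned a called value. The median of all probe sets in isotype control against naïve was -0.06, -0.14 with quantile normalization and -0.20 with median centring, and no member called against naïve mice changed direction. Dim probe sets, such as those of Inhba, Tgfbr2 and Ltbp1 under a log2 signal of about 5, had wide errors, and moderate differences were not detectable there.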
